A study of Mus musculus with 6 samples.

Results

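The 58 genes described here are classical interferon-stimulated genes and the subunits of the interferon receptors. They were chosen by name for membership of the interferon system, with earlier results of these data known. They were looked up among the 55426 features of the deposited table through GENCODE M21, and all 58 were found. Each was measured by RNA-seq of pancreatic stellate cells (PSCs), the fibroblast precursors of the pancreas, that were grown in Matrigel with mouse pancreatic ductal adenocarcinoma (PDAC) organoids of the mT3 line, derived from KPC tumors, on the other side of a transwell membrane. The primary PSCs came from wild-type C57BL/6 mice and were used at low passage. After 48 h, 3 normoxic samples (21% O2) were compared with 3 hypoxic samples (1% O2), and every sample of both groups faced the same tumor organoids. PSCs without tumor cells were not analysed here. The comparison addresses how low oxygen alters fibroblasts in contact with factors from the tumor cells.

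Interferons are secreted proteins that warn cells of infection. Type I interferons bind the receptor pair IFNAR1 and IFNAR2 and type II interferon (interferon gamma) binds IFNGR1 and IFNGR2. JAK-family kinases on the receptors phosphorylate STAT proteins, which enter the nucleus alone or with IRF9. STAT proteins with IRF9 bind the interferon-stimulated response element (ISRE), and STAT dimers bind the gamma-activated site (GAS). The genes they switch on include RNA-binding IFIT proteins, OAS enzymes that make an RNA-degrading signal, IFITM membrane proteins that hinder virus entry, and the GBP and IRG families of GTPases that attack compartments holding pathogens. Many of them keep a low tonic expression without infection.

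The libraries held 24749601 to 25914892 expected counts in the normoxic and 25847719 to 31925054 in the hypoxic samples. Of 10 established hypoxia genes, 10 rose at 1% O2, by 1.03 (Ldha) to 5.13 (Car9) on the log2 scale. The 10 fibroblast markers, most of whose level is collagen, summed to 28420 to 35620 counts per 1000000 (CPM, scaled with TMM factors) in normoxic and 30460 to 35300 CPM in hypoxic samples. Of these, 2 were called higher (Pdgfra 1.76-fold and Pdpn 1.98-fold) and 2 lower (Lum 4.49-fold and Thy1 2.01-fold). Of 8 markers of T, B and NK cells 4 were at 0 in every sample, and Epcam, Krt8 and Cdh1, which define epithelial cells, had at most 6 counts in any sample. The 8 epithelial markers summed to 3.23 to 5.31 CPM in normoxic and to 25 to 28.9 CPM in hypoxic samples, 20.6 to 23.9 CPM of the latter Krt19, and 5 endothelial markers were at 9.94 to 15.4 and 14.8 to 21.4 CPM. Of 8 dendritic cell markers, which include the member Bst2, 2 were at 0 throughout. Bst2 made up nearly all of their summed level, and the other 7 summed to 1.21 to 1.35 CPM in normoxic and 1.92 to 2.36 CPM in hypoxic samples, with Batf3 called higher. Macrophage markers were present, at 1032 to 1835 CPM summed over 13 genes in normoxic and 527 to 959 CPM in hypoxic samples. Most of this sum was Lyz2, at 653 to 1164 CPM in normoxic and 315 to 546 CPM in hypoxic samples. Of the 13 markers, 8 were called lower at 1% O2, 0 were called higher and none was at 0 in all samples. Adgre1 and Cd68, among the 8, had overlapping groups. Itgam, Cd14 and Csf1r were not called, at -0.0015, 0.08 and -0.24 on the log2 scale. In bulk RNA, fewer cells of a type and less RNA per cell cannot be told apart. The part of the macrophage signal in the results below was not tested. A fit that carries the marker level as a covariate, chosen after seeing the data, is given for the genes named with it.

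Of the 58 genes, 56 passed the filter on low counts, and 2 did not (Oas3, with 6 to 13 counts per sample, and Mx1, with 1 to 6). Among the 56, 11 were called higher at 1% O2 and 11 lower, where a call needs a fold change beyond 1.5 and an edgeR adjusted p under 0.05. That is 19.6% in each direction. Over all 16207 tested genes, 3068 (18.9%) were called higher and 2479 (15.3%) lower, so the whole set stood near the background in both directions. Another 16 members passed the adjusted p with a smaller fold, 11 of them higher and 5 lower. All 3 hypoxic samples lay above all 3 normoxic samples for 25 members (44.6%) and below them for 20 (35.7%), against 34.9% and 34% of all tested genes. The median log2 fold change was 0.17 over the members and -0.0040 over all tested genes. The set as a whole therefore had no common direction, and its subfamilies differed in the members that were called. In the IFIT family 3 of 4 tested members were called lower and 0 higher, and in the IRG GTPases also 3 of 4 and 0. In the opposite direction, 2 of 4 GBP genes, 2 of 4 receptor subunits and 1 of 3 IFITM genes were called higher and none of these 3 groups had a member called lower. The OAS and IRF families each had 1 call in each direction.

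**Figure D1:**
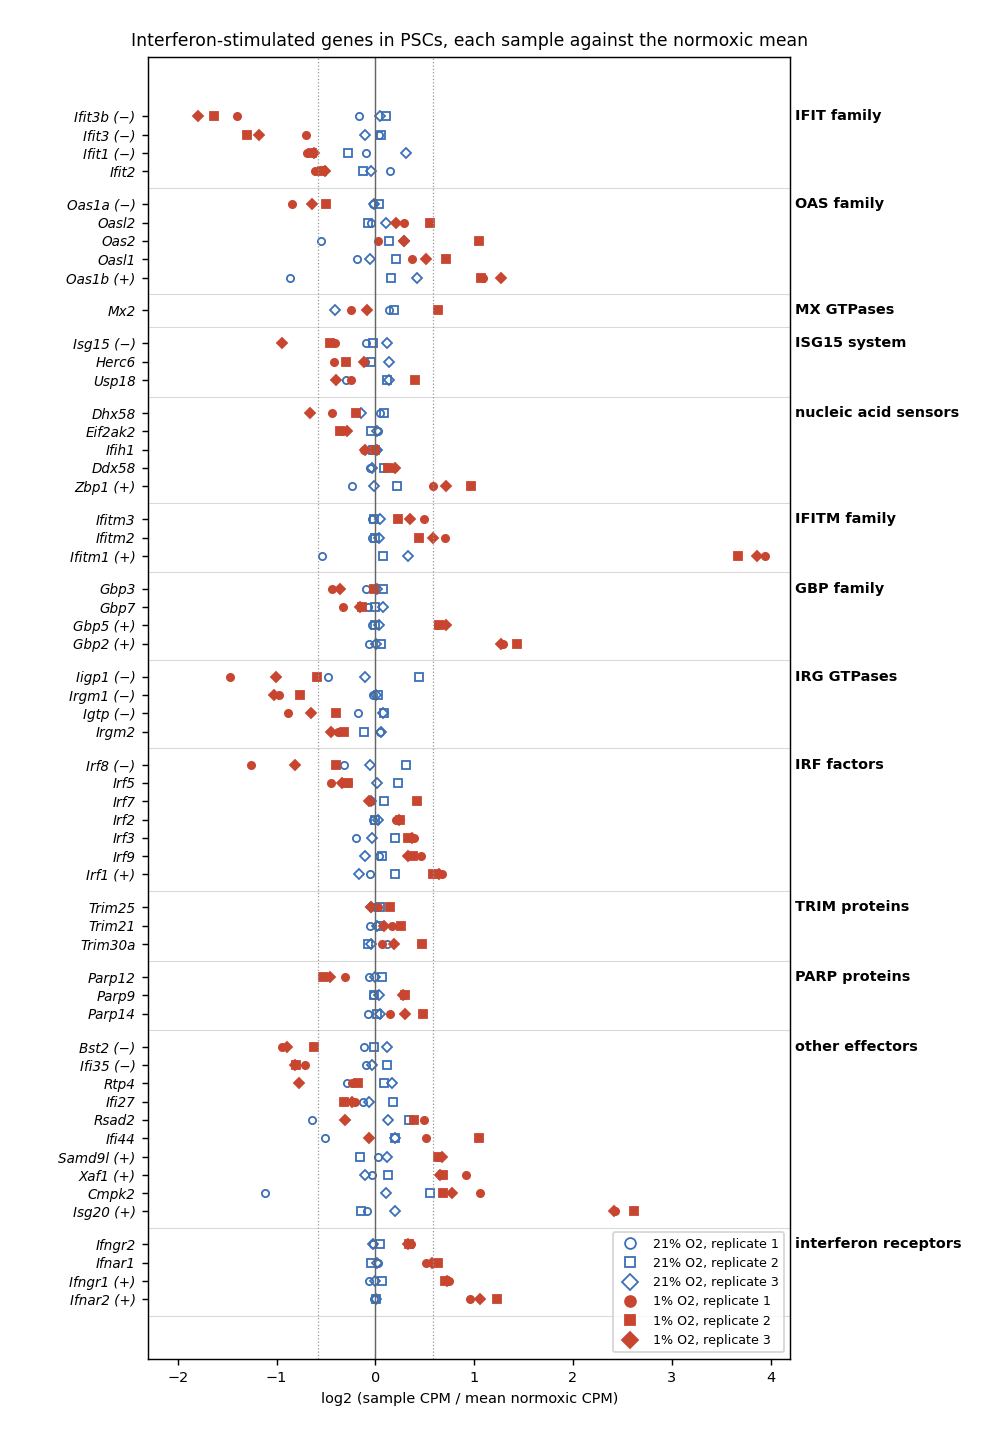
Each row is a tested member, grouped by subfamily, and each symbol is 1 sample as log2 of its CPM over the normoxic mean (open blue, 21% O2; filled red, 1% O2), with dotted lines at the 1.5-fold limits and (+) or (−) after the genes called higher or lower. The 4 IFIT and 4 IRG rows lie to the left, the 4 receptor rows to the right, and Ifitm1 stands farthest out at a log2 fold change of 3.83.

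The sequence in front of the genes is shown here because the members that fell and those that rose differed in how many held an ISRE core. RefSeq promoters (build GRCm38.p6) were matched for 46 of the 58 members, and the 250 bases before each start were searched on both strands for the ISRE core (GAAANNGAA or TTCNNTTTC), the GAS (TTCNNNGAA) and the core of the hypoxia response element (HRE, ACGTG or GCGTG and their complements CACGT and CACGC). Overlapping matches of the same motif were each counted, and an ISRE core and a GAS can share bases. A gene with several RefSeq starts was counted if any of its windows held the motif. For some members, Ifitm1 among them, the RefSeq start lies inside the gene as GENCODE M21 gives it. The bases before the annotated start were not searched there. An ISRE core was found in 8 of the 10 members called lower that had a promoter, in 2 of 9 called higher (Gbp2 and Gbp5) and in 9 of 26 not called. Bases that GENCODE M21 gives as exon hold the match of Gbp2 and both matches of Irgm1, which was called lower. Outside such bases, 7 of the members called lower, 1 of those called higher and 7 of those not called had a match. In all 27025 genes of the table its share was 8.18%. The 2 called lower without it were Ifi35 and Irf8. A GAS was found in 4 of 10 called lower and 4 of 9 called higher (8.13% of all genes), and an HRE in 2 of 10 and 3 of 9 (41.5% of all genes). The ISRE core was thus the motif whose share differed most between the genes called lower and higher, and no test was made of it, since Ifit3 and Ifit3b are near copies of each other and Ifnar2 and Ifngr1 among the 9 encode receptors. The share rests on calls that were partly near the fold limit. Ifit1, Oas1a, Isg15 and Igtp, which hold the core, each lost the call in fits without a single sample. These and Bst2 lost it with the macrophage covariate. The called members Oas1b, Zbp1 and Iigp1 had no matched promoter. A match is a run of letters and not a shown binding site.

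**Figure D2:**
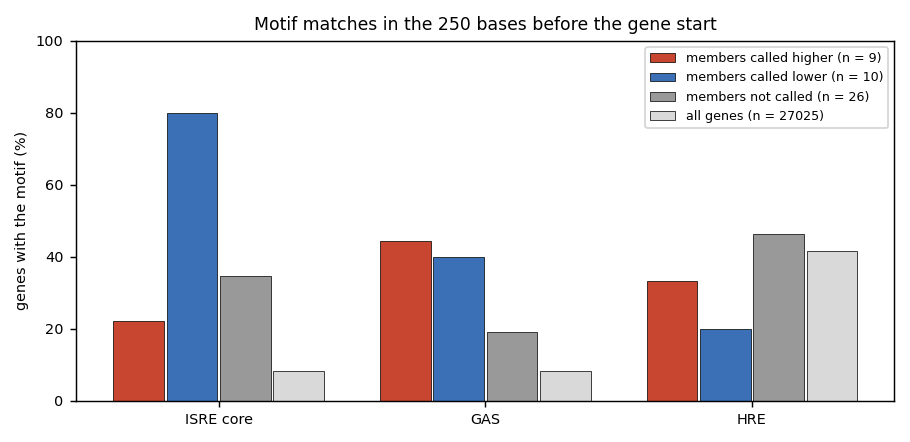
Bars give the percent of genes with at least 1 match of each motif in the 250 bases before a RefSeq start, for members called higher, called lower and not called at 1% O2 and for all genes. The ISRE core stands at 80% of the members called lower, 22.2% of those called higher and 8.18% of all genes.

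Promoters of 4 members that fell are printed first, from the 5′ end to the base before the start on the gene's own strand, with capitals for the motif letters. The printed promoters are examples and do not stand for all called members. Gbp2 and Gbp5, which rose and hold an ISRE core, and Ifi35 and Irf8, which fell without one, are not printed. Isg15 and Igtp had the smallest falls of the members called lower. Ifit3 (chr19:34583279-34583528, plus strand), Ifit3b (chr19:34607707-34607956, plus strand) and Isg15 (chr4:156200819-156201068, minus strand) hold only ISRE cores, 3 in each, and those of Isg15 overlap into 1 run. In Ifit3 they begin 155, 121 and 102 bases before the start and in Ifit3b, its near copy, 187, 153 and 134 bases before it, with the same spacing. Igtp (chr11:58199306-58199555, plus strand) holds an HRE 83, a GAS 45 and an ISRE core 34 bases before the start, in this order.
Ifit3: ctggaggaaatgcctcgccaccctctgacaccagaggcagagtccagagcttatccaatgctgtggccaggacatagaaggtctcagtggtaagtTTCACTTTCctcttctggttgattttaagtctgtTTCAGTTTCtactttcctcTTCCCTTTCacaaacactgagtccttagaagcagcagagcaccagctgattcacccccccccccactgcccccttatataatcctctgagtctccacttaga
Ifit3b: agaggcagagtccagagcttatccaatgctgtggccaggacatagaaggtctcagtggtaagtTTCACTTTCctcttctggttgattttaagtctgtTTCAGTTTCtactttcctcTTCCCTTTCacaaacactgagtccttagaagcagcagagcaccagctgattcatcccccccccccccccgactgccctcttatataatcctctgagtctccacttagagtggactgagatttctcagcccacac
Isg15: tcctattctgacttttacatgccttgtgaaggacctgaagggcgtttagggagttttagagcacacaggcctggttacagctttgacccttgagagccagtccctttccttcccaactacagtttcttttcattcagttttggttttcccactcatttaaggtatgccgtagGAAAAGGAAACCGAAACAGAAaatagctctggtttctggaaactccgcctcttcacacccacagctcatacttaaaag
Igtp: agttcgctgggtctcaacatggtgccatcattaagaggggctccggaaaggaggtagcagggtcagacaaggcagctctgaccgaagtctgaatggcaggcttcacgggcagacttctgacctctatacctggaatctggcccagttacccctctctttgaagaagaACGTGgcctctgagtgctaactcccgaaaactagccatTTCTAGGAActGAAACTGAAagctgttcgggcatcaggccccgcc

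Printed next are 3 members that rose. Ifitm1 (chr7:140967826-140968027, plus strand, the 202 bases of its window outside annotated exons) and Xaf1 (chr11:72301379-72301628, plus strand) hold none of the 3 motifs. The Ifitm1 window lies before a RefSeq start inside the annotated gene, which begins at 140967221. The bases before that annotated beginning were not searched. The window before the start of Isg20 that lies farthest upstream (chr7:78913174-78913423, plus strand) holds a GAS 73 bases before that start. Isg20 has other RefSeq starts, and the window of the next of them (chr7:78913515-78913764) holds HREs 19 and 10 bases before its start, so Isg20 is 1 of the 3 members called higher with an HRE.
Ifitm1: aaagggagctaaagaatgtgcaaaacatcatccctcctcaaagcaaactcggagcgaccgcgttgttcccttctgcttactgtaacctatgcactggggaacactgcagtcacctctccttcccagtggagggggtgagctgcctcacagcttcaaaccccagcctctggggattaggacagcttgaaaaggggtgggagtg
Xaf1: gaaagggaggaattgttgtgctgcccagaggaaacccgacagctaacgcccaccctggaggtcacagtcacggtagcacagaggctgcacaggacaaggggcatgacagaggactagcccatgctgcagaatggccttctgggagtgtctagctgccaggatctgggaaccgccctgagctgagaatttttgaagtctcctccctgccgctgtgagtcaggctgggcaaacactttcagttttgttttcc
Isg20: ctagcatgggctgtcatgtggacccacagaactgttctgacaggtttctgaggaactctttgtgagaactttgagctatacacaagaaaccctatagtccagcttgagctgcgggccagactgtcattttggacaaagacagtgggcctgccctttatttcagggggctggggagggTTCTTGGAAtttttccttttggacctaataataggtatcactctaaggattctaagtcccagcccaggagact

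Among the interferon genes themselves, which encode the ligands, nothing passed the filter. Of 21 type I, II and III interferon genes 17 had 0 counts in all 6 samples, among them Ifnb1 and Ifng, and 3 had 4 counts in all. Only Ifnz had counts in every sample, 3 to 5 in normoxic and 6 to 14 in hypoxic libraries. At this depth a count of 0 allows up to 3 counts, or 0.0943 to 0.122 CPM depending on the library, by counting error alone. The tumor cells were not in these libraries, so interferon from the organoids was not measured here.

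The receptor subunits were all higher in hypoxic PSCs. Ifnar2 had CPM of 60.6, 61.5 and 61.5 in normoxic and 119, 143 and 127 in hypoxic replicates 1, 2 and 3, a rise of 1.09 ± 0.07 (SE) on the log2 scale or 2.12-fold (edgeR adjusted p = 2.38e-06). Ifngr1 rose from 53.4, 58.3 and 55.9 CPM to 93.5, 91.2 and 92.3 CPM, or 1.65-fold (edgeR adjusted p = 4.78e-06). The groups of both genes lay far apart relative to the spread within them. Their partners missed the fold limit. Ifnar1 was 1.49-fold higher (94.9 ± 2.6 CPM in normoxic and 142 ± 5.89 CPM in hypoxic samples, SD, n = 3; edgeR adjusted p = 2.03e-05) and Ifngr2 1.27-fold higher (edgeR adjusted p = 0.000259). So 4 of 4 subunits had every hypoxic sample above every normoxic one, 1 of each receptor pair past the fold limit. Ifnar2, Ifnar1 and Ifngr2 lie close together on chromosome 16, with Il10rb between Ifnar2 and Ifnar1, and exons of Ifnar2 overlap those of the annotated gene Gm21970 by 315 bases on the same strand. Il10rb, the receptor subunit that interferon lambda shares with IL-10, was also called higher, at 30 ± 1.29 CPM against 63.6 ± 2.32 CPM (2.12-fold), while Ifnlr1, the subunit particular to interferon lambda, was at 0.645 to 1.5 CPM in all samples and was not called.

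Downstream of the receptors 2 of the 3 kinases were called higher. Jak2, which serves the interferon gamma receptor, rose 1.83-fold (94.2 ± 4.18 to 172 ± 5.43 CPM), and Tyk2, which serves IFNAR1, rose 1.52-fold (37.5 ± 3.32 to 56.9 ± 0.761 CPM). Jak1, shared by both receptors, was 1.31-fold higher at an edgeR adjusted p of 0.000897. Stat2 was at 37.0 ± 3.09 and 39.9 ± 0.0917 CPM, with overlapping groups.

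**Figure D3:**
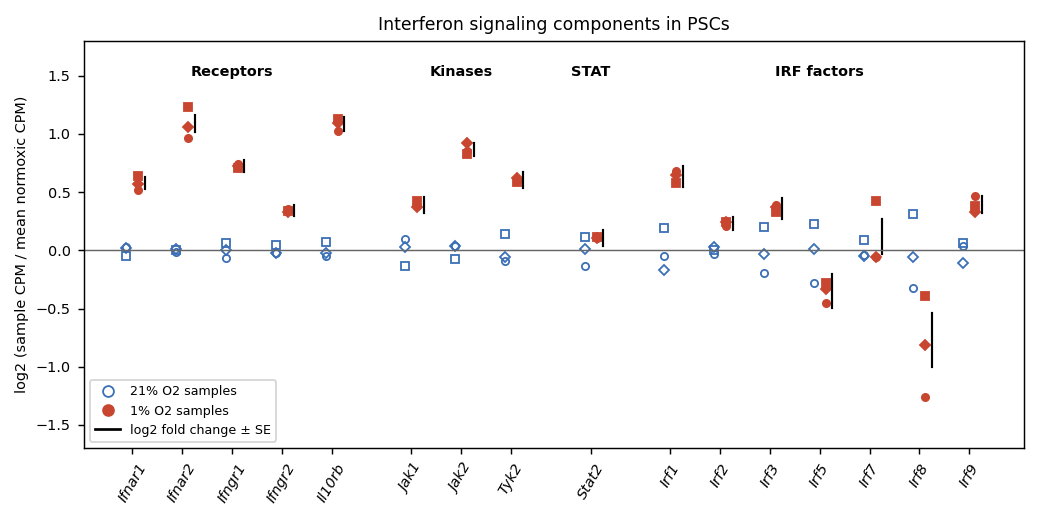
Each symbol is 1 sample as log2 of its CPM over the normoxic mean (open blue circles, squares and diamonds, replicates 1, 2 and 3 at 21% O2; filled red, the same at 1% O2), and black bars are the fitted log2 fold change ± SE. Receptor and kinase genes lie above 0 in hypoxic samples, Stat2 lies near 0, and the IRF genes spread from -0.77 for Irf8 to 0.63 for Irf1.

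Of the 42 other genes of the pathway on the list, with the ligands, kinases and STATs above, 21 passed the filter. Among them 5 were called higher (Jak2, Tyk2, Il10rb, Ikbke and Ptpn2), or 23.8% against 18.9% of all tested genes. Called lower were 3, with Tlr7 and Ptpn6 among them, or 14.3% against 15.3% of all tested genes. Both shares were near those of all genes. Ikbke, a kinase that activates IRF3, rose 1.88-fold, and Ptpn2, a phosphatase that turns off JAK and STAT proteins, rose 1.57-fold. Ptpn6, a phosphatase found mainly in blood cells, fell 2.96-fold and Tlr7, an RNA receptor of immune cells, fell 1.73-fold. The summed macrophage markers moved with them, from 1032 to 1835 CPM in normoxic to 527 to 959 CPM in hypoxic samples, with 8 of 13 markers lower. With that level as covariate Ptpn6 went from -1.56 to -0.90 on the log2 scale and was still called lower, whereas Tlr7 went from -0.79 to -0.28 (edgeR adjusted p = 0.325). The 5 genes called higher were still called higher there, at 0.69 (Tyk2) to 1.18 (Il10rb). The feedback inhibitors Socs1 and Socs3 had overlapping groups and were not called.

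The interferon regulatory factors split between a rise of Irf1 and a fall of Irf8. Irf1, a transcription factor induced through GAS, had 23.5, 27.9 and 21.7 CPM in normoxic and 39.0, 36.5 and 38.1 CPM in hypoxic replicates 1, 2 and 3 (1.55-fold higher, log2 fold change 0.63 ± 0.09, edgeR adjusted p = 0.000261). The groups did not overlap, and without normoxic replicate 3 the fold slipped below the limit (log2 fold change 0.55). Exons of Irf1 overlap by 135 bases those of Gm17334 on the other strand. Irf8, a factor of macrophage and dendritic cell lineages, had 5.50, 8.54 and 6.61 CPM in normoxic and 2.87, 5.23 and 3.93 CPM in hypoxic replicates (1.71-fold lower, edgeR adjusted p = 0.0169). Hypoxic replicate 2 came close to normoxic replicate 1. In each group replicate 2 was the highest and replicate 1 the lowest. The call was lost without normoxic replicate 2 (-0.59) and without hypoxic replicate 3 (-0.76), and the log2 fold change went from -0.77 to -0.07 (edgeR adjusted p = 0.783) with the macrophage marker level as covariate. Irf9, the partner of STAT2, was 1.31-fold higher (18 to 20.2 against 24.3 to 26.7 CPM). Irf3, the factor that first induces interferon after virus sensing, was 1.28-fold higher (39.9 to 52.6 against 57.6 to 59.8 CPM), and Irf2, an antagonist of IRF1, 1.18-fold (26.3 to 27.4 against 31.1 to 31.8 CPM). These 3 stood apart from the normoxic samples, all with an edgeR adjusted p under 0.05 and non-overlapping groups but under the fold limit. Irf7, which amplifies type I interferon, was at 6.94 to 7.63 and 6.88 to 9.61 CPM, and Irf5, a factor of inflammatory macrophages, at 6.2 to 8.8 and 5.5 to 6.19 CPM. Neither passed a threshold, and Irf5 was at -0.04 with the macrophage covariate.

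The IFIT family, which binds foreign RNA and sits in a cluster on chromosome 19, was lower throughout. Ifit3b had 1.85, 2.24 and 2.15 CPM in normoxic and 0.785, 0.670 and 0.597 CPM in hypoxic replicates 1, 2 and 3, a fall of 3.04-fold (log2 fold change -1.61 ± 0.23, edgeR adjusted p = 0.000259). Ifit3 fell 2.06-fold, from 7.97, 8.08 and 7.22 CPM to 4.75, 3.16 and 3.43 CPM (edgeR adjusted p = 0.000515). Every hypoxic value of both genes was below every normoxic one. These genes are near copies: 41.1% of the 75-base windows of Ifit3 and 35.7% of those of Ifit3b also occur in another gene, so the division of reads between them is uncertain. Summed as 1 gene they fell by 1.15 ± 0.15 on the log2 scale (edgeR adjusted p = 0.000165). Ifit1 fell 1.57-fold, from 2.85, 2.5 and 3.77 CPM to 1.89, 1.95 and 1.98 CPM (edgeR adjusted p = 0.0195), a call lost without normoxic replicate 3, hypoxic replicate 1 or hypoxic replicate 3. Ifit2 was 1.46-fold lower (15.6 ± 1.57 to 10.7 ± 0.404 CPM, edgeR adjusted p = 0.00092), under the fold limit. With the macrophage marker level as covariate, Ifit3 was at -1.33 and Ifit3b at -1.52, both still called lower, and Ifit1 was at -0.66 and no longer called (edgeR adjusted p = 0.125).

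The IRG GTPases, which in mice act on the vacuoles of intracellular parasites, were the other group with 4 of 4 members below the normoxic samples. Irgm1, a regulator of the family, had 29.6, 30.5 and 30.1 CPM in normoxic and 15.3, 17.7 and 14.8 CPM in hypoxic replicates 1, 2 and 3 (1.88-fold lower, log2 fold change -0.91 ± 0.08, edgeR adjusted p = 1.39e-05). The normoxic samples were nearly equal, and the call held in all 6 fits that left out 1 sample and with the macrophage covariate (-0.77). Iigp1, an effector GTPase, fell 1.96-fold, from 14.9, 28.3 and 19.4 CPM to 7.5, 13.9 and 10.4 CPM (edgeR adjusted p = 0.00865). Here the samples of a group differed widely and the groups nearly touched. In each group replicate 2 was the highest and replicate 1 the lowest. With the macrophage covariate its log2 fold change went from -0.97 to -0.11 (edgeR adjusted p = 0.574). Igtp fell 1.54-fold, from 5.97, 7.17 and 7.1 CPM to 3.65, 5.11 and 4.31 CPM (edgeR adjusted p = 0.00654), and was at -0.26 with that covariate. Its call was lost there, without normoxic replicate 2 or hypoxic replicate 1, and with a correction for GC content (-0.58) or exon length (-0.52). Irgm2 was 1.3-fold lower (edgeR adjusted p = 0.00272). Annotated exons of Igtp and Irgm2 overlap by 162 bases on the same strand.

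The guanylate-binding proteins, GTPases of the same defense against vacuoles, went the other way or were not called. Gbp2 had 13.1, 14.2 and 13.7 CPM in normoxic and 33.5, 36.9 and 32.9 CPM in hypoxic replicates 1, 2 and 3, a rise of 2.52-fold (log2 fold change 1.33 ± 0.07, edgeR adjusted p = 9.22e-07). Gbp5, which also promotes inflammasome assembly, rose 1.58-fold at a much lower level, from 1.93, 1.97 and 2.03 CPM to 3.06, 3.1 and 3.24 CPM (edgeR adjusted p = 0.00565). Within both genes the groups were clearly separate. Gbp2 was at 1.47 with the macrophage covariate, and Gbp5 at 0.68 with an edgeR adjusted p of 0.0567. Gbp3 and Gbp7 were at -0.25 and -0.20 and were not called. All 4 genes lie within the same cluster on chromosome 3.

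The largest change of all 58 genes was in the IFITM family. Ifitm1 had 2.35, 3.61 and 4.30 CPM in normoxic and 52.6, 43.4 and 49.7 CPM in hypoxic replicates 1, 2 and 3, a rise of 14.2-fold (log2 fold change 3.83 ± 0.17, edgeR adjusted p = 2.19e-07). All 3 hypoxic samples stood far above the normoxic ones. Ifitm2 and Ifitm3, at far higher levels, were 1.5-fold higher (326 ± 8.7 to 488 ± 44.3 CPM, edgeR adjusted p = 0.000118) and 1.28-fold higher (254 ± 7.97 to 326 ± 29.1 CPM, edgeR adjusted p = 0.00184). The value of Ifitm2, 0.58 on the log2 scale, lay just under the fold limit. It passed the limit with DESeq2 size factors (0.59), without normoxic replicate 3 (0.60) or hypoxic replicate 2 (0.64), and with a correction for GC content (0.61) or exon length (0.90). Ifitm3 passed it with the correction for exon length (0.68). Per exon length, Ifitm2 and Ifitm3 were the most abundant of the 58 genes, at 1658 and 1249 TPM (transcripts per 1000000, each gene's counts divided by its exon length and scaled to a common total) in normoxic and 2613 and 1689 TPM in hypoxic samples, while Ifitm1 went from 10.4 to 156 TPM. All 3 lie on chromosome 7, where Ifitm1 (140967221 to 140969825, plus strand) starts between Ifitm2 (140954837 to 140955987, minus strand) and Ifitm3 (141009586 to 141010770, minus strand). Ifitm2 shares 42% of its 75-base windows with other genes, among them Gm45717, and summed with these it was at 0.57, again under the fold limit. For Ifitm1 the shared part was 0.582%.

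In the OAS family, which includes enzymes that make the messenger that activates RNase L, Oas1a and Oas1b moved apart. Oas1a had 6.31, 6.60 and 6.37 CPM in normoxic and 3.57, 4.53 and 4.12 CPM in hypoxic replicates 1, 2 and 3 (1.57-fold lower, edgeR adjusted p = 0.00224). Oas1b had 0.616, 1.25 and 1.5 CPM in normoxic and 2.40, 2.36 and 2.70 CPM in hypoxic replicates (2.22-fold higher, edgeR adjusted p = 0.00723). The groups of both genes did not overlap. However, 47.6% of the windows of Oas1a occur in another gene. The 8 Oas1 genes summed, with Oas1b among them, were at -0.16 ± 0.14 on the log2 scale (edgeR adjusted p = 0.338), not called. As this sum also holds the rise of Oas1b, it does not show how shared reads bear on Oas1a. Oas1b shares none of its windows. Oas1a lost its call without hypoxic replicate 1 and with a correction for exon length and, with the macrophage covariate, went to -0.46 (edgeR adjusted p = 0.0738). Oasl1 (2.31 to 3.04 against 3.38 to 4.31 CPM) and Oasl2 (9.87 to 11.2 against 12.0 to 15.2 CPM), OAS-like proteins, were 1.46-fold and 1.28-fold higher, under the fold limit, with edgeR adjusted p of 0.0242 and 0.0196. Oas2 had overlapping groups (1.16 to 2.07 against 1.73 to 3.51 CPM). Oas2 and Oasl1 were called higher with the macrophage covariate, at 1.41 and 0.89.

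**Figure D4:**
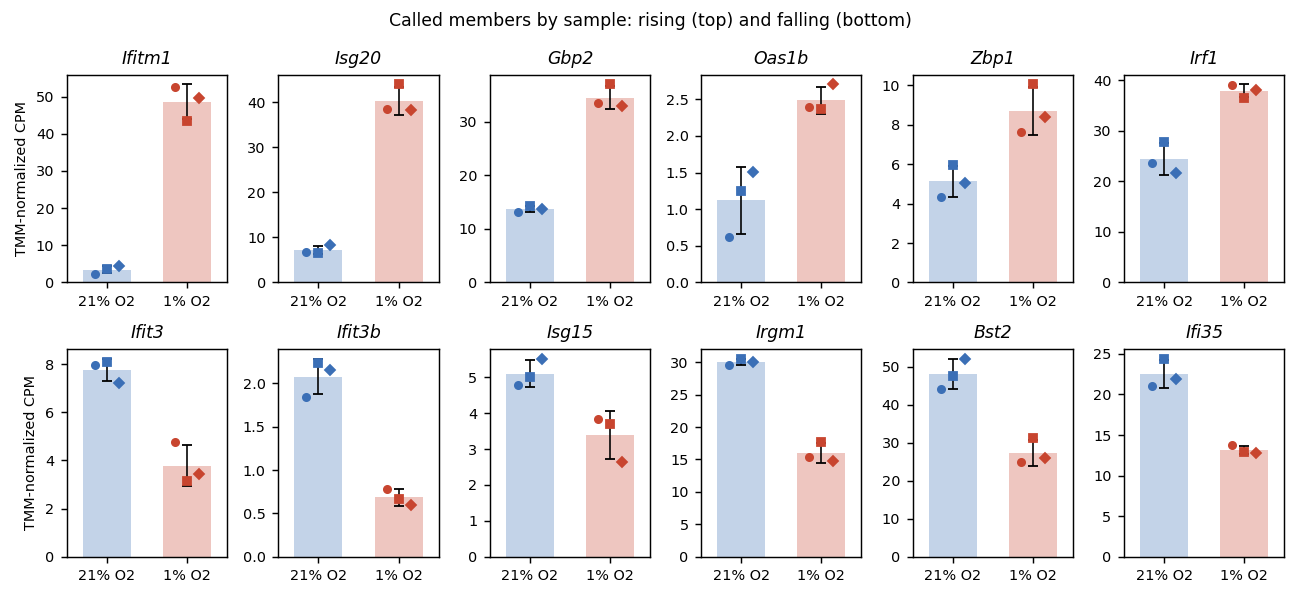
TMM-normalized CPM of 12 called members, 6 that rose (top) and 6 that fell (bottom), with circles, squares and diamonds for replicates 1, 2 and 3 of each group, bars for the mean and whiskers for the SD (n = 3). In each panel the hypoxic and normoxic samples do not overlap, from 2.35 to 4.30 against 43.4 to 52.6 CPM for Ifitm1 to 29.6 to 30.5 against 14.8 to 17.7 CPM for Irgm1.

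Of the ISG15 system, which attaches a ubiquitin-like protein to other proteins, Isg15 itself fell and its enzymes were not called. Isg15 had 4.77, 5.01 and 5.52 CPM in normoxic and 3.85, 3.70 and 2.64 CPM in hypoxic replicates 1, 2 and 3 (1.5-fold lower, log2 fold change -0.59 ± 0.18, edgeR adjusted p = 0.0157). The value stood at the fold limit, and hypoxic replicate 3 was the lowest sample. The call was lost without normoxic replicate 3 or hypoxic replicate 3, with a correction for GC content (-0.54) or exon length (-0.29, edgeR adjusted p = 0.184), and with the macrophage covariate (-0.52, edgeR adjusted p = 0.141). Usp18, which removes ISG15, was at 2.69 to 3.65 and 2.51 to 4.37 CPM, and Herc6, the ligase, at 5.08 to 6.04 and 4.08 to 5.06 CPM, a log2 fold change of -0.27. Of the MX GTPases, Mx2 was at 0.527 to 1.08 CPM over all samples and was not called.

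Among the sensors of foreign nucleic acid, Zbp1 rose while the RIG-I-like receptors were not called. Zbp1, which binds left-handed nucleic acid and can start necroptosis, had 4.35, 5.96 and 5.07 CPM in normoxic and 7.66, 10.1 and 8.39 CPM in hypoxic replicates 1, 2 and 3 (1.7-fold higher, edgeR adjusted p = 0.00213), and was at 1.17 with the macrophage covariate. Ddx58 (RIG-I) was at 19.3 to 21.4 and 21.9 to 23.1 CPM, Ifih1 (MDA5) at 13.2 to 13.7 and 12.4 to 13.4 CPM, and Dhx58 (LGP2) at 4.02 to 4.71 and 2.8 to 3.86 CPM. Their log2 fold changes were 0.17, -0.08 and -0.42, and the groups overlapped for Ifih1 only. Eif2ak2, the kinase PKR that stops translation, was 1.26-fold lower at an edgeR adjusted p of 0.000861.

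Among the remaining effectors Isg20 rose most. Isg20, an exonuclease that degrades RNA, had 6.78, 6.49 and 8.24 CPM in normoxic and 38.6, 43.9 and 38.3 CPM in hypoxic replicates 1, 2 and 3 (5.62-fold higher, log2 fold change 2.49 ± 0.10, edgeR adjusted p = 1.79e-07). Xaf1, which promotes apoptosis, rose 1.69-fold, from 3.16, 3.53 and 3 CPM to 6.09, 5.2 and 5.09 CPM (edgeR adjusted p = 0.00176). Samd9l, an antiviral factor that also restrains growth, rose 1.57-fold, from 22.6, 20.1 and 24.2 CPM to 34.5, 34.6 and 35.6 CPM (edgeR adjusted p = 7.96e-05). The groups of these 3 genes did not overlap. The call of Samd9l was lost without normoxic replicate 2. Bst2, the tetherin that holds budding viruses at the membrane, fell 1.75-fold from 44.3, 47.8 and 52.2 CPM to 24.9, 31.2 and 25.9 CPM (edgeR adjusted p = 8.5e-05), and with the macrophage covariate was at -0.57, just under the fold limit, as it was when corrected for exon length (-0.54). Ifi35 fell 1.71-fold, from 21.1, 24.4 and 21.9 CPM to 13.7, 12.9 and 12.8 CPM (edgeR adjusted p = 4.19e-05) and was still called with the covariate. Its exons overlap by 290 bases those of Gm11626, an antisense gene, and whether the counts used strand is not given in the sources used here. Ifi27, the most abundant member outside the IFITM family, was at 177 to 219 and 155 to 168 CPM, or 1.19-fold lower (edgeR adjusted p = 0.0232). Rsad2 (viperin), which makes a chain-terminating nucleotide, was at 0.5 to 0.987 and 0.628 to 1.1 CPM, Ifi44 at 0.346 to 0.569 and 0.471 to 1.02 CPM and Rtp4 at 3.08 to 4.22 and 2.2 to 3.32 CPM, all with overlapping groups. None of these 4 was called, nor was Cmpk2, a mitochondrial nucleotide kinase, with a log2 fold change of 0.84 ± 0.36 and an edgeR adjusted p of 0.0702. Cmpk2 was called higher with limma-voom (0.96, limma adjusted p = 0.0492) and in edgeR without normoxic replicate 2 (1.22, adjusted p = 0.0193).

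No TRIM or PARP member was called. The log2 fold changes were 0.05 for Trim25, the ubiquitin ligase of RIG-I, 0.17 for Trim21, a cytosolic antibody receptor, and 0.26 for Trim30a. Trim25 had 54.0 to 57.7 CPM in normoxic and 54.2 to 61.8 CPM in hypoxic samples. Parp9 (28.1 to 29.3 against 34.6 to 35.2 CPM) and Parp14 (14.9 to 16.2 against 17.3 to 21.9 CPM), ADP-ribosylating proteins, were 1.22-fold and 1.25-fold higher and Parp12 (22.3 to 24.4 against 16.1 to 18.9 CPM) 1.35-fold lower, all with an edgeR adjusted p under 0.05 and under the fold limit.

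With the macrophage marker level as covariate, 4 of the 11 members called lower were still called lower (Ifit3, Ifit3b, Irgm1 and Ifi35), 7 were not, and of the 11 called higher 10 were still called higher, at 0.60 (Samd9l) to 3.75 (Ifitm1). Over all 16207 tested genes the covariate took the calls from 3068 to 2892 higher and from 2479 to 2158 lower, so that fewer genes were called in each direction. The covariate takes up 1 of few degrees of freedom and itself differs between the groups, so a lost call there does not show that a gene did not change. Of the 7, Irf8 and Iigp1 had the smallest remaining values, -0.07 and -0.11, and Igtp was at -0.26. Others kept most of their fold: Ifit1 was at -0.65 without and -0.66 with the covariate, Isg15 at -0.59 and -0.52, Oas1a at -0.65 and -0.46, and Bst2 at -0.81 and -0.57, the last with an edgeR adjusted p of 0.00211. Ifit2 was called lower, and Ifnar1, Oas2 and Oasl1 higher, with the covariate and not without it. With other settings Ifit2 was called lower without normoxic replicate 2 (-0.61), Ifnar1 was called higher without hypoxic replicate 1 (0.61) or corrected for GC content (0.63), and Oasl1 without normoxic replicate 2 (0.66) or hypoxic replicate 1 (0.62) or corrected for exon length (0.61). Among members called in neither fit, Ifi44 went from 0.57 to 1.25, Usp18 from -0.04 to 0.55, Mx2 from 0.16 to 0.63, Irf7 from 0.12 to 0.45 and Parp14 from 0.32 to 0.54. Rtp4 went from -0.38 to -0.11 and Dhx58 from -0.42 to -0.26.

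**Figure D5:**
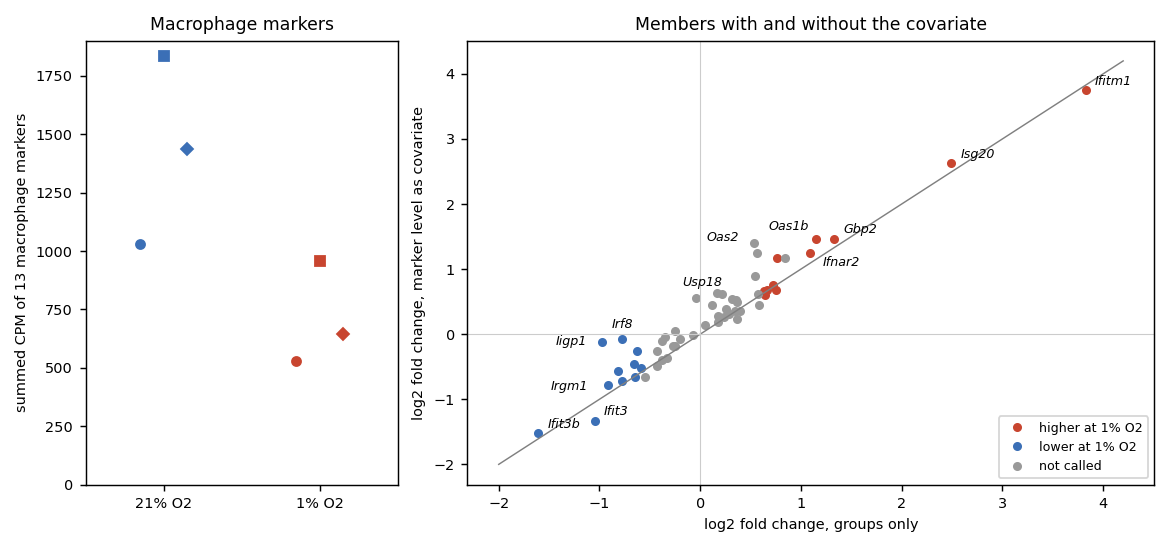
Left, CPM summed over 13 macrophage markers in each sample (circles, squares and diamonds, replicates 1, 2 and 3), 1032 to 1835 at 21% O2 and 527 to 959 at 1% O2. Right, log2 fold change of each tested member with the groups alone (x axis) and with the macrophage marker level as covariate (y axis), colored by the call with the groups alone. Ifitm1, Isg20 and Gbp2 lie near the diagonal line of equal values, and Iigp1 and Irf8 lie near 0 on the y axis.

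Genes of MHC class I antigen presentation are also induced by interferons. Of 13 genes tested, 4 were called lower (Nlrc5, Erap1, B2m and Psme2), 1 higher (H2-K1), and 5 others were lower at an edgeR adjusted p under 0.05, against 15.3% of all tested genes called lower and 18.9% higher. Without normoxic replicate 1 or hypoxic replicate 2 the count called higher was 0, and without hypoxic replicate 1 the count called lower was 2. Nlrc5, the activator of these genes, had 10.4, 18.4 and 12.2 CPM in normoxic and 4.2, 5.71 and 5.78 CPM in hypoxic replicates 1, 2 and 3 (2.6-fold lower, edgeR adjusted p = 0.000506). B2m, the light chain, fell 1.53-fold (515 ± 21.5 to 338 ± 41 CPM), whereas H2-K1, a heavy chain, rose 1.53-fold (444 ± 73.8 to 680 ± 44.8 CPM). H2-D1, another heavy chain, had overlapping groups. With the macrophage covariate 2 of the 13 were called lower, Nlrc5 (from -1.38 to -0.78 on the log2 scale) and Erap1 (from -0.66 to -0.70). B2m went from -0.61 to -0.38 and Psme2 from -0.60 to -0.49, both under the fold limit, and H2-K1 was still called higher, at 0.93. Of the interferon-induced chemokines, Cxcl10 was at 0.446 to 0.987 CPM in normoxic and 0.911 to 2.17 CPM in hypoxic samples (log2 fold change 1.02 ± 0.41, edgeR adjusted p = 0.0518) and Cxcl9, Cxcl11 and Ccl5 did not pass the filter.

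Per exon length the members spanned a wide range. Besides Ifitm2 and Ifitm3, Ifi27 had 439.5 TPM in normoxic and 388.4 TPM in hypoxic samples and Bst2 177 and 106 TPM. In all, 10 of the 58 genes had a mean level above 50 TPM over the groups, and 16 were under 5 TPM in both. The IFIT genes were at 3.46 to 14.8 TPM in normoxic samples and at 1.2 to 9.53 TPM in hypoxic samples. At this low end, counting error limits what can be seen.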

How the data were processed

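Poly(A) RNA of 6 PSC samples was sequenced on a NovaSeq-6000. The authors trimmed reads with Cutadapt, mapped them to GRCm38 with STAR 2.6.1b and deposited expected counts per gene from RSEM 1.3.1, with no normalization between samples. All values were whole. The annotation release and strand setting are not given in the sources used here. All 6 columns matched sample labels, which also gave the groups. Names and exon lengths came from GENCODE M21 (Mb21d1 is listed there as Cgas), promoters from RefSeq.

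The members, subfamilies and lists were chosen with earlier results of these data known. All 58 members may be named; per-sample values were given for called members. edgeR 4.0.16 in R 4.3.3 (filterByExpr, TMM, quasi-likelihood F test, Benjamini-Hochberg adjustment over all 16207 tested genes) was fitted to the whole table and tested on simulated data. TPM was scaled from counts over exon length. Fold, SE and p refer to hypoxic minus normoxic. Replicates differed by more than counting noise (chi-square per degree of freedom 5.68 to 22.5). Nothing says that they came from separate mice, so p-values measure the spread between these samples. Alternatives were DESeq2 1.42.0, limma-voom 3.58.1, other scalings, filters and thresholds, a replicate block and each sample left out. Corrections for GC content and exon length, the macrophage covariate (mean of log2(CPM + 0.5) over the markers) and the sum of Ifitm2 with its copies were added after seeing the data. A gene of the pathway list is not reported here.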

Additional observations from a re-analysis of the deposited data

How the results depend on the processing

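The counts of 11 members called higher and 11 lower ranged from 11 to 13 and from 8 to 11 when a sample was left out. Of all genes, 17.4% to 19.4% were called higher and 14.2% to 15.1% lower in these fits. Of the 22 called members, 15 kept the call in all 6 of them (9 higher, 6 lower). With DESeq2 or the replicate block each of the 56 tested members had the same call as in the main fit. Without the fold limit 22 members were called higher and 16 lower (all genes 5150 and 5018, or 31.8% and 31.0%). With a limit of 2 there were 5 higher and 2 lower (all genes 1929 and 1227, or 11.9% and 7.57%). Corrected for exon length 14 were called higher and 7 lower (all genes 3118 and 2207, or 19.2% and 13.6%). With the macrophage covariate the counts were 13 and 5 (all genes 2892 and 2158, or 17.8% and 13.3%). Whether the replicate numbers pair the samples is not given, and the main fit did not pair them. The correlations of same-numbered deviations were 0.142, 0.139 and 0.0378. Each sample correlated best with its own number, so the samples may be paired. The block moved calls over all genes from 3068 to 3072 higher and from 2479 to 2500 lower. Of the other lists, MHC class I genes called higher ranged from 0 to 1 and called lower from 2 to 6 with a sample left out, and the median log2 fold change ranged from 0.25 to 0.62 for the OAS family and from 0.17 to 0.53 for the other effectors. With the macrophage covariate the medians were -0.99 (IFIT), 0.89 (OAS), 0.63 (MX), -0.0191 (sensors), 0.45 (IFITM), 0.37 (GBP), -0.33 (IRG), 0.35 (IRF) and 0.61 (other effectors). Corrected for exon length they were -0.14 (sensors) and 0.90 (IFITM), corrected for GC content 0.70 (receptors), and with copies summed -0.65 (IFIT). The direction of 6 uncalled members, between -0.25 (Gbp3) and 0.22 (Rsad2) as reported, turned: Usp18 was at 0.0166 corrected for GC content, 0.0165 corrected for exon length, 0.55 with the macrophage covariate and from -0.33 to 0.12 with a sample left out, Gbp3 was at 0.0534 with the covariate, Trim25 was at -0.0100 corrected for exon length and from -0.0127 to 0.0845 with a sample left out, and with a sample left out Mx2 ranged from -0.16 to 0.32, Rsad2 from -0.0211 to 0.44 and Irf7 from -0.0619 to 0.20. The cause was not tested. At this depth Oas3 and Mx1 did not pass the filter, and no difference was tested for them. All these settings besides the corrections, the covariate and the Ifitm2 sum were planned.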
